A study of Homo sapiens with 4 samples.

Results

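The response of THP-1 cells to periplocin was read from 2 of the 4 libraries of the series, 1 from cells kept in DMSO and 1 from cells kept in 100 nM periplocin, both for 72 h. The comparison was chosen by its columns in the deposited gene table and covers all 20348 genes of that table, of which 12341 averaged 1 or more CPM, counts scaled to a common library size, over the pair and were tested. THP-1 is an established human line from acute monocytic leukemia. The titles of the samples call the DMSO library a blank control, and the labels give the treated library as the Peri drug group, while dose and time come from the study's methods. The same methods state a single biological replicate, THP-1 cells received from another laboratory, poly-A enrichment and the T7 platform, whereas the labels describe an Illumina library kit. K562, a line from chronic myeloid leukemia, was treated and sequenced alongside and serves here only for comparison.

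Periplocin is a cardiac glycoside from the bark of Periploca, and cardiac glycosides inhibit the sodium pump of the plasma membrane. THP-1 cells resemble monoblasts, carry a fusion of the KMT2A gene, divide without limit and can be driven toward macrophages by several agents. During that step cells of the monocyte lineage normally gain scavenger, Fc and complement receptors, lysosomal enzymes and inflammatory output, and lose progenitor genes, MYC and telomerase. The comparison asks which of these programmes, and which parts of metabolism, differed between the libraries.

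With 1 library per condition there was no replicate check and no p-value is given. A gene was called higher or lower when its scaled ratio was at least 2-fold and the exact 95% interval of that ratio, which covers counting error only, lay off no change. The calls compare these libraries, not the conditions. Log2 ratios are periplocin over DMSO after scaling by the trimmed mean of M values (TMM), so equal counts in both libraries correspond to a log2 ratio slightly above 0. In bulk RNA, fewer cells of a type and less RNA per cell cannot be told apart.

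The libraries held 20622719 counts in DMSO and 17721504 in periplocin, and 5.24% and 3.92% of them fell on mitochondrially encoded genes. The label held against its markers, since all 11 genes of a THP-1 list were measured, with a summed level of 2502 CPM in DMSO and 2413 CPM in periplocin. Erythroid genes that mark K562 summed to 260 and 176 counts over 14 genes, lymphoid genes to 241 and 283 over 14, and fibroblast and epithelial genes to 30 and 37 over 12. Dendritic cell genes summed to 2187 and 791 counts, nearly all of them FLT3, and neutrophil and mast cell genes to 2879 and 1297, nearly all CSF3R and CXCR2. CD1A, CLEC9A, CEACAM8, LTF and MMP8, which define those cells, had between 0 and 6 counts in either library. In the same lists CD1C went from 3 to 21 counts, LAMP3 from 3 to 12 and LCN2 from 0 to 11, against the direction of the sums. Of the lymphoid genes CD7 went from 2 to 39 counts, while the T cell receptor chains CD3D, CD3E and CD3G were at 0. The part of these differences in the results below was not tested.

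Of the 12341 genes tested, 994 (8.05%) were called higher and 1296 (10.5%) lower, 18.6% together. The median log2 ratio was -0.02, and the central 90% of genes lay between -1.43 and 1.34. Changes of at least 4-fold were called in 269 genes that rose and 233 that fell, and changes of at least 16-fold in 38 and 20. Genes called higher took 2.62% of all counts in DMSO and 6.79% in periplocin, and genes called lower went from 7.53% to 2.94%. Calls were more frequent among weakly counted genes, with 43.5% of genes between 1 and 5 CPM and 7.94% of genes at 100 CPM or more. Genes called lower had a median GC content of 52.6%, against 48.9% in genes called higher and 47.7% in the rest.

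**Figure D1:**
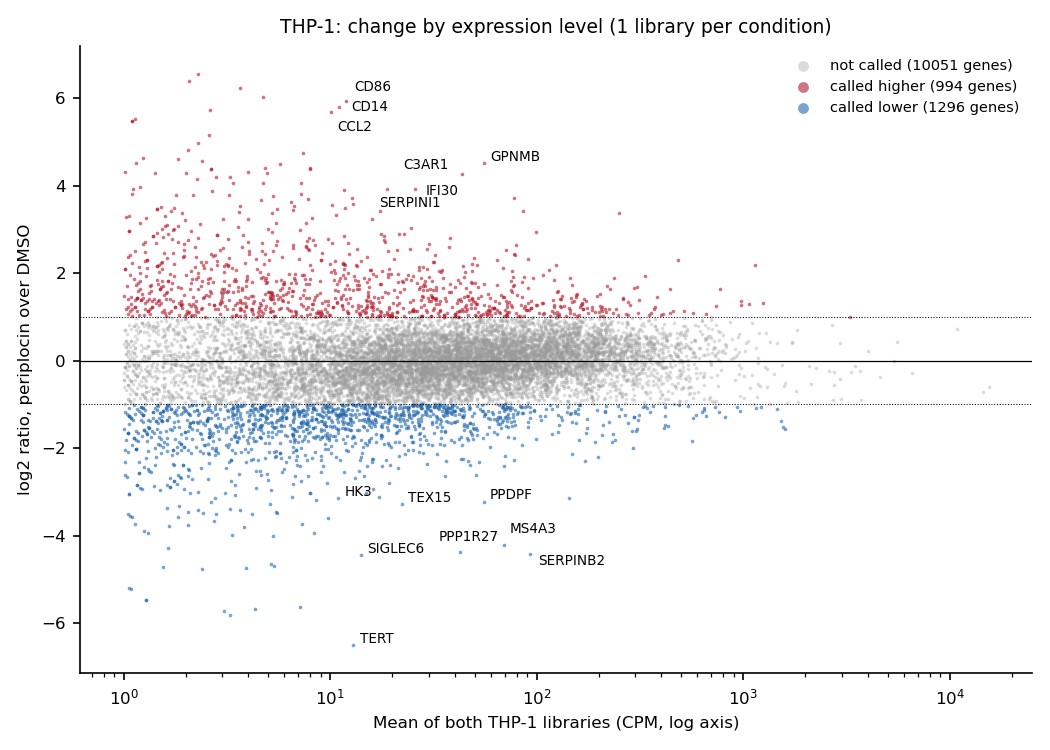
Each point is 1 of the 12341 genes tested, with the mean of both THP-1 libraries in CPM on a log axis and the log2 ratio of periplocin over DMSO on the vertical axis. The 994 genes called higher are red, the 1296 called lower are blue, the dotted lines mark 2-fold, and CD86, CD14 and CCL2 at the top and TERT at the bottom stand farthest from 0 among genes of 10 or more CPM.

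The largest rises among genes that averaged 10 or more CPM began with genes of the mature macrophage and included others. CD86, a costimulatory ligand for T cells, had 8 counts in DMSO and 416 in periplocin (log2 ratio 5.93, counting interval 4.94 to 7.15). CD14, the co-receptor for bacterial lipopolysaccharide, had 8 and 382 counts (5.81, 4.81 to 7.03). The chemokine CCL2, which draws monocytes into tissue, had 8 and 349 (5.68, 4.68 to 6.90). GPNMB, a lysosomal and surface glycoprotein of macrophages, rose from 96 to 1885 counts. C3AR1, the receptor for complement fragment C3a, rose from 88 to 1453. CD86, CD14 and CCL2 were below 1 CPM in DMSO and passed the minimum of 10 CPM only through periplocin. Their counting intervals are wide, although they lie above 2-fold. Large rises followed in SERPINI1, the serpin neuroserpin, with a log2 ratio of 3.93, and IFI30, a lysosomal thiol reductase of antigen processing, with 3.93. S100A10 rose with 3.73, the mRNA decay factor ZFP36L1 with 3.72, the growth factor binding protein IGFBP3 with 3.58, the interferon-induced IFIT3 with 3.49, the pro-apoptotic BMF with 3.42, MTSS1 with 3.41 and GLIPR1 with 3.38. Of these largest rises, CD14, SERPINI1 and BMF were also called higher in K562, and C3AR1 was called lower there. CD14 had 1 and 69 counts in K562.

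The largest falls began with TERT, the catalytic subunit of telomerase, which had 530 counts in DMSO and 5 in periplocin (log2 ratio -6.50, counting interval -8.13 to -5.27). SIGLEC6, a sialic acid binding lectin, fell from 559 to 22 counts (-4.44). SERPINB2, an inhibitor of plasminogen activators, fell from 3652 to 145 (-4.42, interval -4.67 to -4.18). MS4A3, a membrane protein of granulocyte and monocyte progenitors, fell from 2721 to 124 (-4.23). The progenitor gene MS4A3 and an inflammation-induced inhibitor were thus among the largest falls. IMPDH2, the rate-limiting enzyme of guanine nucleotide synthesis, fell from 5301 to 516 counts (-3.13). HK3, a hexokinase of myeloid cells, fell from 406 to 39. ASL, which makes arginine from argininosuccinate, fell from 592 to 66. The others were PPP1R27 with a log2 ratio of -4.37, TEX15 with -3.29, PPDPF with -3.22, ANXA8 with -3.11, MS4A4A with -3.03, the Wnt pathway inhibitor NKD2 with -2.79, the calcium channel subunit CACNA2D3 with -2.68 and the arrestin family member ARRDC3 with -2.65. ANXA8 has a near-identical neighbour, ANXA8L1, and how reads were divided between them is uncertain. Of these largest falls, TERT, SIGLEC6, MS4A3, PPDPF and ASL were also called lower in K562, and none was called higher there.

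Among genes that took the most counts, the ferritin heavy chain FTH1, which stores iron, rose from 8513 to 32878 counts (log2 ratio 2.18, counting interval 2.15 to 2.21), although it has processed copies that could share its reads. The others of the 10 most counted genes called higher were AHNAK, B2M, PKM, SLC38A2, TXNIP, PLD3, PTPRC, PSAP and MCL1, with log2 ratios between 1.01 for AHNAK and 1.65 for PLD3. The 10 most counted genes called lower held 8 ribosomal proteins. RPS2 fell from 49465 to 14196 counts (-1.57), RPL3 from 47969 to 14307 (-1.51) and RPS6 from 45884 to 14914 (-1.39), and RPL7A, RPL7, RPSA and RPS18 had log2 ratios between -1.29 and -1.08. The translation elongation factor EEF1G, at -1.11, and the lactate transporter chaperone EMB, at -1.07, were also among the 10. Ribosomal protein genes have many processed copies, and the counting program that divided such reads is not given in the sources used here.

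Promoter windows of 5 genes of the macrophage, interferon, MYC target and progenitor lists are shown. They were picked from the windows at hand because they hold the letters searched, in genes that rose and in genes that fell. They are RefSeq windows on GRCh38.p14 that run from 250 bases before to 50 bases after a start site, 5′ to 3′ along the gene's strand, and capitals mark the matches. CD14 at chr5:140633126-140633425 on the minus strand and the first CD86 window at chr3:122055112-122055411 on the plus strand hold GAGGAA or its reverse complement TTCCTC, the core letters bound by PU.1, the master factor of the myeloid lineage. The windows of IFIT3 at chr10:89327747-89328046 and chr10:89332279-89332578, both on the plus strand, hold GAAANNGAA on the reverse strand, the core of sites for interferon regulatory factors (IRF). SRM, at chr1:11059969-11060268 on the minus strand, holds the E-box CACGTG that MYC binds. MS4A3, at chr11:60056415-60056714 on the plus strand, which fell, also holds GAGGAA, beside TTNNGCAA on both strands, the letters of C/EBP factors.
CD14: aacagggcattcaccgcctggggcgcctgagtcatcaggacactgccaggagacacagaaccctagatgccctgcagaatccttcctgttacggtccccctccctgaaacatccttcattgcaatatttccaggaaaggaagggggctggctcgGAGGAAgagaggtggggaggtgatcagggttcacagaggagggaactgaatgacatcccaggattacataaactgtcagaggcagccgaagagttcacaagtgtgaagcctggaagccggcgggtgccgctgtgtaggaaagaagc
CD86: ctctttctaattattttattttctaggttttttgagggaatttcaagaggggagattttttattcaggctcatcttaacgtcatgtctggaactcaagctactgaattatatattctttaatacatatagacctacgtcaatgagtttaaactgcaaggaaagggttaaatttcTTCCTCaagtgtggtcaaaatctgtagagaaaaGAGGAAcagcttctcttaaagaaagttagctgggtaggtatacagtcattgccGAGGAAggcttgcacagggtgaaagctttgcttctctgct
IFIT3, first window: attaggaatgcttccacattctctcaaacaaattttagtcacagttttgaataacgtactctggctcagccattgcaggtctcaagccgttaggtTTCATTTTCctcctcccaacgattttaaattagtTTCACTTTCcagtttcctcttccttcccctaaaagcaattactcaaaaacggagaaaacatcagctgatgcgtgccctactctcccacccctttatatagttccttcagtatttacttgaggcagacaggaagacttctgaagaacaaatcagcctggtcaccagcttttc
IFIT3, second window: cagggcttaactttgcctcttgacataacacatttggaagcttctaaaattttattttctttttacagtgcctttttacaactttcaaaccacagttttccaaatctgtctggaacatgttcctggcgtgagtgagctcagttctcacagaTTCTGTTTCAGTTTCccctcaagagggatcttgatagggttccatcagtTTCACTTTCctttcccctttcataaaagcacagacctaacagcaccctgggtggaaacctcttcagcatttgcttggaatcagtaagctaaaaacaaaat
SRM: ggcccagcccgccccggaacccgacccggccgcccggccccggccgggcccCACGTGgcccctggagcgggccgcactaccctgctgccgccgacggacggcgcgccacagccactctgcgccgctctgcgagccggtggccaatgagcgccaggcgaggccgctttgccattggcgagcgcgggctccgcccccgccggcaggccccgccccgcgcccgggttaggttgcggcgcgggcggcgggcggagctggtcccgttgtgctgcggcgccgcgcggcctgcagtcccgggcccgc
MS4A3: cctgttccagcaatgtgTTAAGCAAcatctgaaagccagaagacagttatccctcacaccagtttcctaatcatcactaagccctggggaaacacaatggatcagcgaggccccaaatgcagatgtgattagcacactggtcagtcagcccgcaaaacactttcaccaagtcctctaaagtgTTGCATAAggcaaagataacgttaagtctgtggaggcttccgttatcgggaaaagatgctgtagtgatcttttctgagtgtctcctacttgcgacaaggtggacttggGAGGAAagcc

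Of 66 monocyte and macrophage markers listed, 41 were measured and 25 were called higher and 2 lower. Of these, 9 of the genes called higher reached 1 CPM only in periplocin and 1 called lower only in DMSO, so that they were measured because they differed. Among the 31 genes at 1 CPM or more in both libraries 16 were called higher and 1 lower, where 8.05% of all genes were called higher. Of 14 pattern recognition and scavenger receptors 4 were measured, and CD14 and CLEC5A among them reached 1 CPM only in periplocin. Beside CD14, the fatty acid and oxidized lipoprotein receptor CD36 rose from 616 to 2162 counts (2.04) and the macrophage glycoprotein CD68 from 3069 to 5957 (1.19). CLEC5A, a lectin that signals through DAP12, had 1 and 80 counts, a log2 ratio of 6.55 with a counting interval of 4.03 to 11.87. The receptors that mark alternatively activated tissue macrophages stayed near 0, with 1 and 4 counts of CD163, 1 and 3 of MRC1 and 16 and 10 of MSR1. MARCO, another scavenger receptor, had 22 and 6 counts and was not tested. In K562, 6 of 19 measured genes of the whole marker list were called higher and 2 lower. Over all K562 genes these shares were 8.83% and 11.5%.

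Of 11 Fc, complement and integrin receptors 7 were called higher, 3 of them at 1 CPM only in periplocin. The share called higher over all genes was 8.05%. FCGR1A, the high-affinity receptor for IgG, rose from 1724 to 4006 counts (log2 ratio 1.45) and FCGR2A from 1886 to 3266 (1.02), just past the call. The inhibitory FCGR2B rose from 9 to 106 (3.79, counting interval 2.81 to 4.96). These receptors have near-identical copies, so their division of reads is uncertain. The integrin chain ITGAM rose from 572 to 1063 (1.12), while ITGAX and ITGB2 had log2 ratios of 0.63 and 0.91 and were not called. C5AR1, the receptor for complement fragment C5a, had 17 and 241 counts (4.06), and VSIG4, a complement receptor of resident macrophages, had 5 and 89 (4.38, interval 3.11 to 6.04). FCGR3A, which marks nonclassical monocytes, had 1 count in each library.

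Of 7 costimulatory and adhesion genes 4 were called higher, CD86 and CD80 of them at 1 CPM only in periplocin. The share called higher over all genes was 8.05%. CD80, the partner of CD86, had 0 counts in DMSO and 39 in periplocin, at least 15.3-fold higher against a floor of 3 counts. ICAM1, the ligand of leukocyte integrins, rose from 63 to 506 (log2 ratio 3.24) and CD83 from 94 to 234 (1.55). CD40, at 88 and 122 counts, and CD274, which encodes PD-L1, at 23 in each library, were not called. Among growth factor and chemokine receptors 2 of 7 were called higher, CSF2RA from 345 to 802 counts (1.45) and CX3CR1 from 1135 to 1954 (1.01). CSF1R, the receptor for macrophage colony stimulating factor, had 3086 and 2286 counts (-0.20) and CCR2, the receptor for CCL2, 3232 and 1544 (-0.84), neither of them called.

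Of 26 genes of tissue and lipid-associated macrophages 12 reached 1 CPM in both libraries, and 6 of these were called higher and 1 lower. The shares over all genes were 8.05% higher and 10.5% lower. A further 2 called higher, CD9 and FABP4, reached 1 CPM only in periplocin, and 1 called lower, S100A9, only in DMSO. SPP1, which encodes osteopontin, rose from 97 to 557 counts (log2 ratio 2.75), the sialic acid receptor SIGLEC1 from 87 to 549 (2.89), the tetraspanin CD9 from 5 to 47 (3.46) and APOE from 46 to 134 (1.77). FABP4, a fatty acid carrier, had 3 and 62 counts (4.60, counting interval 2.99 to 6.92). TIMP1, an inhibitor of matrix proteases, rose from 1464 to 3025 (1.28). S100A9, an alarmin of classical monocytes, went the other way from 96 to 3 counts (-4.77, interval -7.07 to -3.18), as did the matrix proteoglycan VCAN from 490 to 176 (-1.25). LYZ and CHI3L1, also monocyte and macrophage products, were not called at -0.30 and 0.68.

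**Figure D2:**
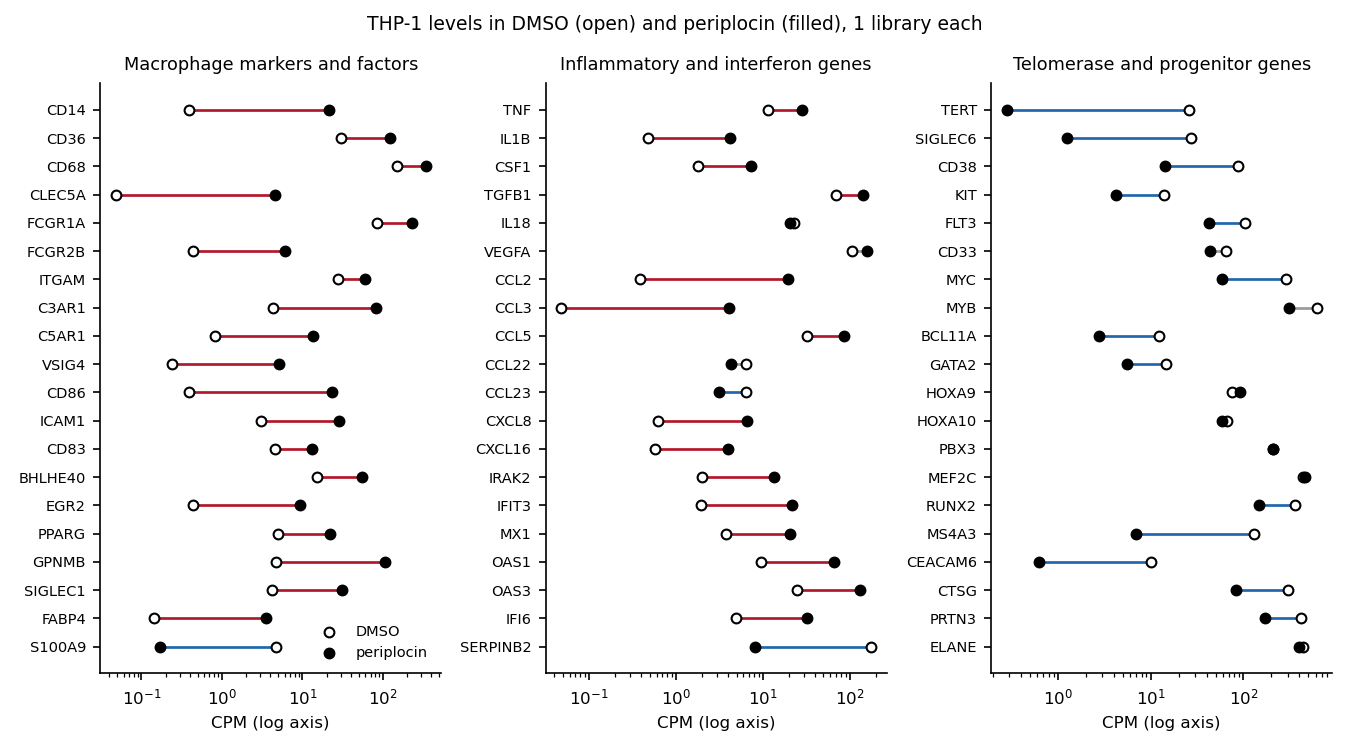
Levels in CPM on a log axis in the DMSO library (open circles) and the periplocin library (filled circles) for macrophage, inflammatory and interferon, and telomerase and progenitor genes, 1 gene a line, with red lines for genes called higher, blue for called lower and grey for not called. CD86, CD14, CCL2 and CCL3 lie far to the right in periplocin and TERT, SIGLEC6 and MS4A3 far to the left, while HOXA9, PBX3 and MEF2C overlap; levels are not per length and are read within a line.

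Of 13 lineage transcription factors of monocytes, 1 was called higher and 2 lower, with a median log2 ratio of 0.01. Over all genes tested, 8.05% were called higher and 10.5% lower. SPI1, which encodes PU.1, had 3702 and 4377 counts (0.47), CEBPA 6492 and 4798 (-0.21), CEBPB 530 and 547 (0.28) and RUNX1 5217 and 4468 (0.01). IRF8, which sets monocyte and dendritic fate, fell from 12161 to 4323 counts (-1.26, counting interval -1.31 to -1.21), and KLF2 fell from 482 to 181 (-1.18). KLF4, a factor of monocyte maturation, rose from 187 to 331 (1.05).

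Of 16 factors of mature macrophages 12 reached 1 CPM in both libraries, and 6 of these were called higher and 1 lower. The shares over all genes were 8.05% higher and 10.5% lower. EGR2, a zinc finger factor at 1 CPM only in periplocin, rose from 9 to 163 counts (log2 ratio 4.41, counting interval 3.45 to 5.56) and the leucine zipper factor MAF from 53 to 103 (1.19). PPARG, the nuclear receptor for fatty acid ligands, rose from 102 to 390 (2.17), MITF, a factor of lysosomal and pigment genes, from 160 to 539 (1.98) and BHLHE40 from 312 to 979 (1.88). The stress factor ATF3 rose from 28 to 100 (2.07). EGR1, an immediate early factor, fell from 339 to 130 (-1.15), and NR1H3, the liver X receptor of macrophages, had 179 and 137 counts (-0.16) and was not called.

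Of 41 cytokine and chemokine genes 12 reached 1 CPM in both libraries, and 4 of these were called higher and 1 lower, where 8.05% of all genes were called higher. A further 5, IL1B, CCL2, CCL3, CXCL8 and CXCL16, were called higher and reached 1 CPM only in periplocin. TNF rose from 239 to 506 counts (log2 ratio 1.31, counting interval 1.09 to 1.54). IL1B rose from 10 to 74 (3.12, 2.16 to 4.24), the macrophage growth factor CSF1 from 37 to 129 (2.03) and TGFB1 from 1435 to 2544 (1.06). IL18 and VEGFA were not called, at -0.18 and 0.56. Among CC chemokines, CCL5 rose from 666 to 1535 counts (1.44). CCL3 had 1 and 72 counts, a log2 ratio of 6.40 with a counting interval of 3.88 to 11.72, and it has near-identical copies in the genome. CCL23 fell from 133 to 55 (-1.04), and CCL22, at 133 and 77, was not called. CXCL8, which attracts neutrophils, rose from 13 to 117 (3.40) and CXCL16 from 12 to 71 (2.80). CXCL1, CXCL2, CXCL9 and CXCL10 had between 0 and 6 counts in either library and were not tested.

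Genes that NF-κB induces in inflammation were called higher in 5 of 28 measured and lower in 1, with a median log2 ratio of 0.47, where 8.05% of all genes were called higher. The 5 became 3 with the whole interval past 2-fold and 1 at 4-fold. The inhibitor BCL3 rose from 125 to 300 counts (1.49), the ubiquitin ligase BIRC3 from 59 to 133 (1.40) and the adaptor TRAF1 from 48 to 97 (1.25). IRAK2, a kinase below interleukin-1 and Toll-like receptors, rose from 42 to 237 (2.73) and the hyaluronan receptor CD44 from 5864 to 11058 (1.15). The feedback genes NFKBIA and TNFAIP3, at 0.61 and -0.10, were not called. None of the 5 subunits was called, with log2 ratios from 0.18 for RELA to 0.88 for REL. SERPINB2, a further inducible product, was the gene called lower.

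Interferon-stimulated genes were called higher in 21 of 40 measured and lower in 0, with a median of 1.05, where 8.05% of all genes were called higher. At 4-fold 9 of them were called. Among 29 antiviral effectors 17 were called, with a median of 1.51. IFIT3, which binds viral RNA together with its relatives, rose from 40 to 382 counts (log2 ratio 3.49, counting interval 3.01 to 3.99) and IFIT2 from 57 to 311 (2.68). The RNA-sensing synthetases OAS1 and OAS3 rose from 197 to 1170 (2.80) and from 516 to 2328 (2.40). MX1, which traps viral nucleocapsids, rose from 79 to 366 (2.44), IFI6 from 101 to 565 (2.71), IFI44L from 25 to 164 (2.94) and EPSTI1 from 26 to 120 (2.44). The abundant SAMD9 and EIF2AK2 had log2 ratios of 0.68 and 0.96 and were not called. Among sensors and factors, IRF7 rose from 164 to 398 (1.51), IRF9 from 374 to 828 (1.38), IFIH1, which encodes the RNA sensor MDA5, from 301 to 780 (1.60) and GBP2 from 53 to 177 (1.97). STAT2, a factor below the interferon receptors, was not called at 0.90, and DHX58 had 87 and 38 counts (-0.96). Of the 24 genes of the list measured in both lines, the THP-1 ratio lay above the K562 ratio in 19 and below it in 1, beyond counting error.

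Windows of the interferon-stimulated genes called higher held the IRF letters in 17 of 20 (85%), over 16 genes with a window. Over all interferon-stimulated genes tested the share was 25 of 37 (67.6%), and over the 14596 windows of all 9961 tested genes with one it was 6.74%. The PU.1 letters stood in 22 of 39 windows (56.4%) of macrophage markers called higher, over 23 genes, in 24 of 52 (46.2%) of all tested macrophage markers and in 27.8% of all windows. They also stood in 10 of 18 windows (55.6%) of progenitor genes called lower and in 31 of 74 (41.9%) of all tested progenitor genes. The NF-κB motif was found in 1 of the 39 macrophage windows and in 2.08% of all. A match is a run of letters on either strand and not evidence of binding.

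Among the antigen presentation genes of class II 3 of 8 were called lower and 0 higher, where 10.5% of all genes were called lower. Of the 3, HLA-DPA1 reached 1 CPM only in DMSO. HLA-DRA fell from 221 to 44 counts (log2 ratio -2.10), HLA-DPA1 from 44 to 12 (-1.64) and CIITA, the transactivator of class II genes, from 244 to 81 (-1.36). HLA-DRB1 had 1545 and 1452 counts (0.14), and CD74, the invariant chain, 4554 and 5044 (0.38). In class I, B2M rose from 14710 to 31282 (1.32), and the other 9 genes were not called, with HLA-B at 0.84 and TAP1 at 0.77. HLA genes are alike and variable, so their single values are uncertain.

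Lysosomal and phagocyte oxidase genes were called higher in 15 of 38 measured and lower in 0, where 8.05% of all genes were called higher. The median log2 ratio was 0.81, and 0 of the 15 reached 4-fold. The proteases CTSB, from 2891 to 9399 counts (1.93, counting interval 1.87 to 1.99), and CTSS, from 4421 to 11805 (1.65), rose, as did CTSD from 3242 to 6975 (1.34) and CTSK from 64 to 187 (1.78). Of 23 proteases and hydrolases 11 were called higher. The ceramidase ASAH1 went from 2300 to 6065 (1.63), GLA from 1360 to 3053 (1.40), NPC2 from 1204 to 2492 (1.28) and PSAP from 8904 to 15835 (1.06). Of 9 membrane and proton pump genes only CD63 was called, from 4243 to 9883 (1.45), while LAMP1 and LAMP2 had log2 ratios of 0.32 and 0.26. The catalytic oxidase subunit CYBB rose from 321 to 837 (1.61), NCF4 from 2568 to 5107 (1.22) and NCF1, which has pseudogene copies, from 583 to 1134 (1.19). In K562, 9 of 35 measured genes of the list were called higher and 0 lower, with a median of 0.56. There 8.83% of all genes were called higher. The THP-1 ratio lay above that in K562, beyond counting error, in 22 of 34 genes measured in both and below it in 4.

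TERT and the progenitor genes were called lower in 16 of 51 measured and higher in 3. Among the 46 at 1 CPM or more in both libraries 12 were called lower, where 10.5% of all genes were, and 4 more, TERT among them, reached 1 CPM only in DMSO. Of 10 measured genes listed as stem and progenitor antigens, SIGLEC6 among them, 4 were called lower and 1 higher. The summed level of all 13 listed rose from 1203 to 1625 CPM. Beside SIGLEC6, the ectoenzyme CD38 fell from 1816 to 252 counts (log2 ratio -2.62), the stem cell factor receptor KIT from 291 to 74 (-1.74) and the cytokine receptor FLT3 from 2175 to 744 (-1.32). IL1RAP, a co-receptor for interleukin-1, rose from 877 to 2099 (1.49), and CD33, at 1352 and 760, was not called. CD34 was at 0 in both libraries.

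Targets of the KMT2A fusion were nearly level. Of 13 measured, HOXA5 was called higher, from 54 to 101 counts (log2 ratio 1.13), and RUNX2 lower, from 7363 to 2605 (-1.27). Over all genes 8.05% were called higher and 10.5% lower, so 1 of 13 each way lay near those shares. MEF2C had 9067 and 8089 counts (0.07), JMJD1C 11489 and 11925 (0.28) and CDK6 17364 and 12733 (-0.22). The homeobox genes HOXA9 and HOXA10 and their partner PBX3 were not called either. Among progenitor factors 3 of 14 were called lower and 1 higher, beside the same shares over all genes. MYC, which drives growth and ribosome production, fell from 5889 to 1024 counts (-2.29, counting interval -2.39 to -2.20), BCL11A from 255 to 49 (-2.15) and GATA2 from 306 to 98 (-1.41). MYB fell short of the call at 12669 and 5441 counts (-0.99). TRIB2, at 1 CPM only in periplocin, rose from 14 to 42 (1.82).

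Granule genes of the promyelocyte were called lower in 7 of 14 and higher in 0, where 10.5% of all genes were called lower. Of the 7, 3 reached 1 CPM only in DMSO. The serine proteases CTSG and PRTN3 fell from 6226 to 1458 counts (-1.86) and from 8669 to 3037 (-1.28), while their relative ELANE had 9037 and 6952 (-0.15). SERPINB10 fell from 1472 to 263 (-2.25) and the adhesion molecule CEACAM6 from 207 to 11 (counting interval of the log2 ratio -5.03 to -3.13). MPO, the myeloperoxidase gene, fell from 43 to 14 (-1.39). AZU1, at 21890 and 15193, and RNASE2, at 4340 and 4246, were not called. Proteases of 1 family thus differed in their values, with CTSG and ELANE farthest apart.

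**Figure D3:**
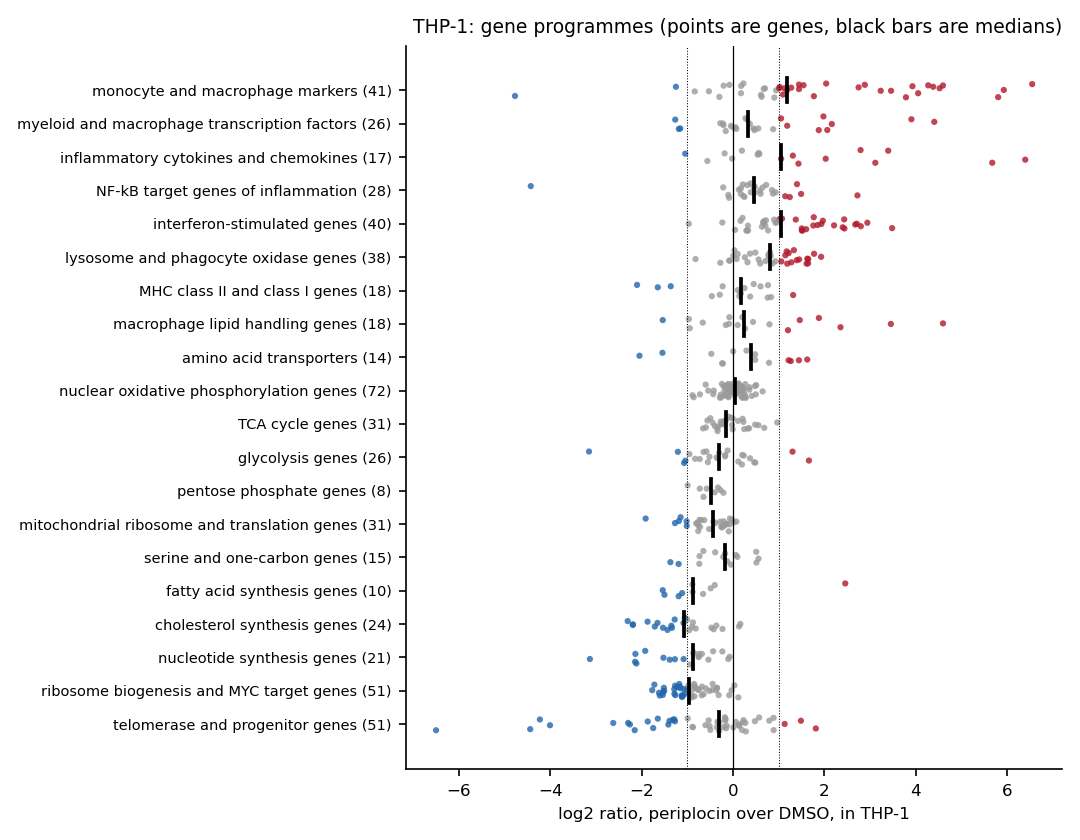
Log2 ratios of periplocin over DMSO in THP-1 for the measured genes of 20 lists, with the number measured in parentheses. Points are genes, red where called higher, blue where called lower and grey where not called, and black bars are medians, which lie at 1.05 for interferon-stimulated genes, near 0 for nuclear oxidative phosphorylation genes and at -1.07 for cholesterol synthesis genes. In the macrophage and cytokine lists 9 and 5 of the red genes were measured only through periplocin, which shifts their medians.

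Ribosome production genes fell alongside MYC. Of 36 nucleolar proteins 18 were called lower and 0 higher, with a median of -0.99, where 10.5% of all genes were called lower. RRP9, a processing factor of the small subunit, fell from 336 to 87 counts (log2 ratio -1.72), NHP2 from 1124 to 316 (-1.60), NOB1 from 1572 to 462 (-1.54) and NOP16 from 582 to 172 (-1.53). FBL, the methyltransferase of ribosomal RNA, fell from 1951 to 685 (-1.28), and POLR1B, a subunit of RNA polymerase I, from 1293 to 453 (-1.28). The most counted members, NPM1 and NCL, were not called at -0.35 and -0.89. Among 15 other MYC targets 6 were called lower. ODC1, the first enzyme of polyamine synthesis, fell from 2497 to 626 (-1.77), SRM, which makes spermidine, from 1070 to 320 (-1.51) and NME1 from 1073 to 298 (-1.62). LDHA, CDK4 and TFRC were not called, at 0.12, -0.80 and -0.03. For the nucleolar proteins the THP-1 ratio lay below that in K562 in 32 of 36 genes and above it in 0. The E-box letters stood in 10 of 25 windows (40%) of the called genes of this list, in 23 of 62 (37.1%) of all its tested genes and in 9.35% of all windows.

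In energy metabolism the respiratory chain was level. None of 72 nuclear oxidative phosphorylation genes was called, the median log2 ratio was 0.06 and the range ran from -0.88 to 0.65. None of 31 enzymes of the tricarboxylic acid (TCA) cycle and its surroundings was called either, with a median of -0.14. ATP5F1B, the catalytic subunit of ATP synthase, had 11755 and 10545 counts (0.07), and citrate synthase, CS, 7053 and 4270 (-0.49). The 13 mitochondrially encoded genes had a median of -0.27, from MT-CO3 at -0.89 to MT-ND2 at 0.23, and 0 were called. Proteins of mitochondrial translation were called lower in 6 of 31, with a median of -0.43, where 10.5% of all genes were called lower. MRPL24 fell from 595 to 135 counts (-1.91), MRPS27 from 3034 to 1074 (-1.27) and MRPL3 from 2659 to 998 (-1.18).

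Glycolysis genes were called higher in 2 of 26 and lower in 4, with a median log2 ratio of -0.31. The pyruvate kinase PKM rose from 12743 to 26846 counts (1.31) and the enolase ENO2 from 37 to 100 (1.66). The 4 called lower were HK3 at -3.15, the hexokinase HK2 from 506 to 206 (-1.07), the glucose transporter SLC2A3 from 192 to 71 (-1.20) and the phosphofructokinase PFKL from 3496 to 1449 (-1.04). Over all genes 8.05% were called higher and 10.5% lower, and the summed level of the list was 7225 and 7456 CPM. GAPDH and ENO1 were not called, at -0.30 and -0.17. The 8 pentose phosphate enzymes all had ratios below 0, from -0.99 for PGLS to -0.21 for TKT, and 0 were called.

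Cholesterol synthesis genes fell in THP-1 and not in K562. Of 24 measured in THP-1, 13 were called lower and 0 higher, with a median log2 ratio of -1.07, where 10.5% of all THP-1 genes were called lower. MSMO1, a sterol methyl oxidase, fell from 1250 to 216 counts (-2.30, counting interval -2.52 to -2.09), CYP51A1 from 2372 to 443 (-2.19) and the mevalonate kinase MVK from 305 to 57 (-2.19). The epoxidase SQLE fell from 5459 to 1483 (-1.65), the reductase DHCR7 from 805 to 188 (-1.87) and the synthase LSS from 1168 to 369 (-1.43). SREBF2, the transcription factor of the pathway, fell from 11639 to 4781 (-1.05). In K562, 5 of 25 measured genes of the list were called higher and 0 lower, where 8.83% of 11863 K562 genes were called higher and 11.5% lower. The THP-1 ratio lay below the K562 ratio, beyond counting error, in 21 of the 24 genes measured in both, and above it in 0. The median of that difference was -1.58.

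**Figure D4:**
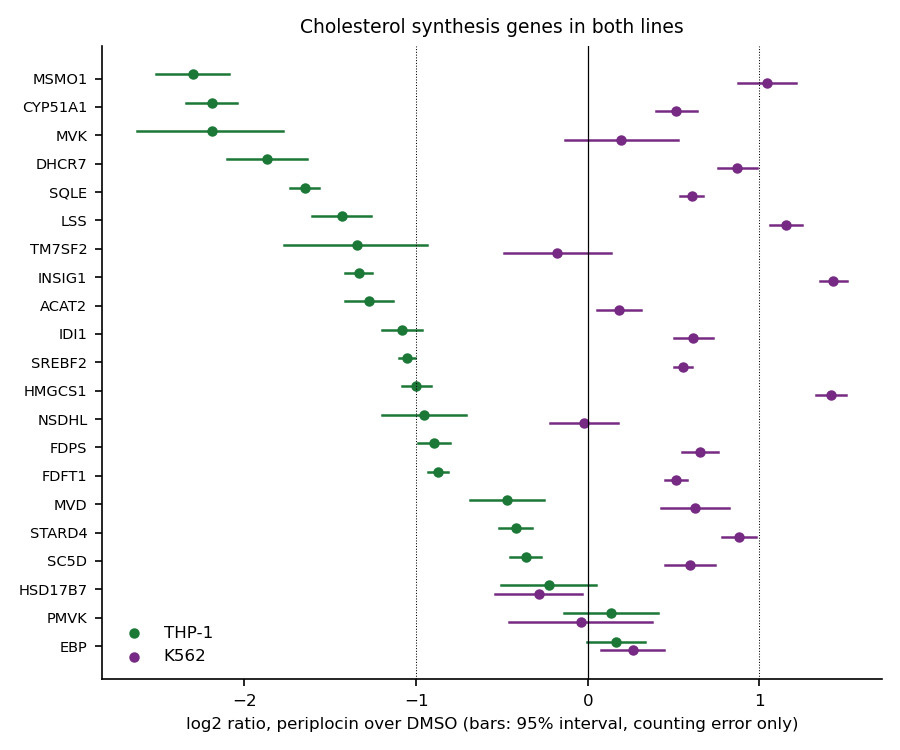
Log2 ratios of periplocin over DMSO for 21 cholesterol synthesis genes measured in THP-1 (green) and K562 (purple), with 95% intervals that cover counting error only and dotted lines at 2-fold. All but 2 of the THP-1 points lie below 0 and most K562 points lie above it, farthest apart for MSMO1 at -2.30 and 1.04.

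Fatty acid synthesis genes followed, with 4 of 10 called lower, where 10.5% of all genes were. FASN, the fatty acid synthase, fell from 13196 to 3984 counts (log2 ratio -1.50), the desaturases SCD from 12782 to 3759 (-1.54) and FADS2 from 4400 to 1647 (-1.19), and the acetyl-CoA carboxylase ACACA from 4478 to 1767 (-1.11). MLXIPL, a glucose-responsive factor of lipogenic genes, rose from 58 to 272 (2.46). The ratio lay below that in K562 in 9 of 10 genes, with a median difference of -1.21. Of 5 genes of cholesterol efflux and of liver X receptor targets 2 were called higher, SCD lower and 2 neither. The exporters ABCA1 and ABCG1 rose from 756 to 1778 (1.46) and from 19 to 178 (3.46, counting interval 2.77 to 4.22), ABCG1 reaching 1 CPM only in periplocin. Of 13 lipid droplet and lipase genes 11 reached 1 CPM in both libraries, and 2 of these were called higher, where 8.05% of all genes were. A further 2, MGLL and FABP4, were called higher and reached 1 CPM only in periplocin. The lipid droplet coat gene PLIN2 rose from 627 to 1233 (1.21), the acyl-CoA synthetase ACSL1 from 848 to 2666 (1.88) and the lipase MGLL from 11 to 48 (2.36). SREBP letters, searched as TCACNCCAC, stood in 1 of 12 windows of cholesterol genes called lower and in 1.10% of all windows. CCAAT stood in 9 of those 12 (75%), in 18 of 23 (78.3%) of all tested cholesterol genes and in 34.6% of all.

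Nucleotide synthesis genes were called lower in 9 of 21 and higher in 0, where 10.5% of all genes were called lower, and all 21 ratios lay below 0. In the purine pathway IMPDH2 led. PAICS fell from 4990 to 969 counts (log2 ratio -2.13, counting interval -2.23 to -2.03), PFAS from 776 to 150 (-2.14), ATIC from 2093 to 740 (-1.27), ADSS2 from 2138 to 699 (-1.38) and ADSL from 1920 to 775 (-1.08). Against K562 the ratio was lower in 16 of the 21 genes and higher in 4. PPAT, which starts the purine pathway, had 737 and 329 counts (-0.93) and was not called. In the pyrimidine pathway DHODH, the mitochondrial dehydrogenase, fell from 340 to 67 (-2.11), CAD, which carries the opening steps, from 2793 to 830 (-1.52) and RRM2, the ribonucleotide reductase subunit of S phase, from 2765 to 623 (-1.92). Of serine and one-carbon enzymes, 2 of 15 were called lower, near the share over all genes. They were MTHFD1, from 3962 to 1308 (-1.37), and SHMT1, from 433 to 162 (-1.19). PHGDH and PSPH, which make serine, were not called at 0.52 and 0.51.

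Amino acid transporters were called higher in 4 of 14 and lower in 2, where 8.05% of all genes were called higher and 10.5% lower. SLC38A2, a glutamine carrier, rose from 11893 to 24400 counts (log2 ratio 1.27), the cystine carrier SLC7A11 from 494 to 1147 (1.45), SLC7A7 from 230 to 606 (1.63) and SLC7A6 from 1503 to 2985 (1.22). SLC38A5 fell from 397 to 82 (-2.04) and SLC43A1 from 871 to 255 (-1.54). SLC7A5, the main leucine carrier, was level at 4736 and 4052 (0.01).

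Of 25 cell cycle genes of S phase 5 were called lower, with a median log2 ratio of -0.63, where 10.5% of all genes were called lower. CCNE1, the cyclin of S phase entry, fell from 488 to 163 counts (-1.35), and CDC45, CDT1 and POLE2 lay at -1.03, -1.01 and -1.01, the call of CDT1 being lost with DESeq2 size factors. The abundant MCM3 and MCM4 were not called at -0.53 and -0.54. None of 25 genes of G2 and M phase was called, and their median was 0.04, with TOP2A at 0.51 and MKI67 at 0.18. In K562 14 of 24 measured genes of that list were called higher, where 8.83% of all K562 genes were, and their median was 1.11. The THP-1 ratio lay below that in K562 in 24 of the 24 genes measured in both. Among inhibitors, CDKN1A, which encodes p21, rose from 500 to 2308 (2.44, counting interval 2.30 to 2.58), BTG2 from 666 to 2127 (1.91) and BTG1 from 589 to 1277 (1.35). CDKN1C, at 1 CPM only in periplocin, rose from 13 to 37 (1.74).

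Among apoptosis genes, BCL2, which holds mitochondria intact, fell from 7520 to 1756 counts (log2 ratio -1.87), while its relative MCL1 rose from 7573 to 13703 (1.09). The BH3-only gene BMF rose from 305 to 2774 (3.42, counting interval 3.24 to 3.59) and BIK fell from 457 to 191 (-1.03), so that members of both camps moved each way. CASP8 rose from 1074 to 2192 (1.26), and the death receptors FAS and TNFRSF10B rose from 49 to 97 (1.22) and from 873 to 1588 (1.09). BAX and BBC3 were not called, at -0.09 and -0.03. Of 5 sodium pump genes measured, 3 were called higher and 1 lower, where 8.05% of all genes were called higher and 10.5% lower. The beta subunit gene ATP1B1 rose from 206 to 615 (1.81), ATP1B3 from 1925 to 3486 (1.09) and the regulator FXYD5 from 763 to 1797 (1.47).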

How the data were processed

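Poly-A RNA of 4 libraries, 1 per line and condition, was sequenced, and the authors aligned the reads and deposited an estimated count per gene and library, with no normalization, for 20348 genes. The submitters' processing notes name HISAT2, StringTie 1.3.1 and the hg38 build; the program behind the counts is not given in the sources used here. No column held per-sample values that were not used (0). Counts were rounded, summed per library, and scaled by TMM within the THP-1 pair and separately within the K562 pair (R 4.3.3, edgeR 4.0.16). Genes that averaged 1 or more CPM over the pair were tested. A call needed a ratio of at least 2-fold and an exact conditional 95% interval (Clopper-Pearson, scipy 1.17.1) off no change, and a library at 0 was set to a floor of 3 counts. Polymerase copies of a molecule were not told apart, so intervals and floors cover counting error only, and no spread between replicates could be had. Differences between lines carry 95% intervals from the same counts.

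Gene positions come from GENCODE 29, in which 20118 genes were found, and promoter windows from RefSeq on GRCh38.p14. The members and the 29 gene lists were chosen with earlier results of these data known. Genes were named by rule: the 15 largest changes each way at 10 CPM or more, the 10 most counted calls each way, all members of groups of up to 16 genes, and in longer groups the 8 largest calls and the 3 most counted members. HOXA9, HOXA10, PBX3, VCAN and the IRF, SREBP and TFEB or TFE3 letters were chosen after values were seen. Some genes the rule names are not reported here. Scripts were tested on simulated data, and 12 alternatives were run, among them DESeq2 1.42.0 size factors. Figures were drawn with matplotlib 3.10.9 under Python 3.11.15.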

Additional observations from a re-analysis of the deposited data

Results flagged for a closer look

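Over all genes tested, 90 of the 994 called higher in THP-1 were called lower in K562. Of the 1296 called lower, 49 were called higher in K562. Of the 11863 genes at the minimum level in K562, 11.5% were called lower and 8.83% higher. The bases are unlike, since the 994 and 1296 include genes below that minimum, which could not be called in K562. Calls in the same direction were more frequent, with 183 genes higher and 293 lower in both lines. Given here are the 12 opposite calls among all genes of the 29 lists and the largest and most counted calls. Each has the difference of the log2 ratios (THP-1 minus K562) and, for some, its counting interval. This compares 1 library per line and condition, so the difference between lines was not tested against a replicate spread.

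Lower in THP-1 and higher in K562 were the sterol genes MSMO1, with a difference of -3.35 (interval -3.61 to -3.08), LSS, with -2.59, and INSIG1, which retains the sterol sensor in the endoplasmic reticulum, with -2.76. RCL1, a ribosome processing factor, was the other, with -2.34.

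Higher in THP-1 and lower in K562 were 8 genes. C3AR1 differed by 7.37 and rested on 42 and 5 counts in K562. CDKN1A differed by 3.56 and the stress factor ATF3 by 3.55, the latter with 953 counts in K562 DMSO and 348 in K562 periplocin. ACSL1 differed by 3.41, the death receptor TNFRSF10B by 3.09 and FCGR2A by 2.92. MGLL, at 3.91, and CD44, at 2.86, rested on 49 and 17 and on 29 and 9 K562 counts.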

How the results depend on the processing

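No paired analysis was possible because each condition had 1 library and no replicate numbers, and for the same reason no library could be left out. The alternatives were followed in 712 tested genes, all those of the 29 lists and the largest and most counted calls. Among them no called gene changed direction under the 12 alternatives. Those that changed only the filter, the threshold or the test kept the ratio itself, so no reversal could occur there. Direction was compared only for called genes, at least 2-fold from no change, so a reversal was unlikely in advance under the rest. The counts of 994 genes higher and 1296 lower became 636 and 847 at a mean of at least 5 CPM, which tests fewer genes, 269 and 233 at 4-fold, and 637 and 725 with the whole interval past 2-fold. With a dispersion of 0.04 assumed in edgeR's exact test they were 655 and 775, and with 0.16 they were 55 and 28. At 4-fold 15 macrophage markers stayed called higher, and 8 progenitor and 3 cholesterol genes lower. With a dispersion of 0.16 these were 10, 4 and 0, with 2 inflammatory genes higher, and 4 inflammatory genes were called at 5 CPM. For the cholesterol list the other alternatives, including 4-fold, gave at least 3 calls. Scalings, the binomial test, the prior count and bins of GC content and length kept each count within 1.5 times. Interferon-stimulated genes called higher went from 21 to 9 at 4-fold and to 1 with a dispersion of 0.16. The 5 NF-κB genes went to 1 at 4-fold, to 3 with the whole interval past 2-fold or a dispersion of 0.04 and to 0 with 0.16. Lysosomal genes went from 15, and ribosome production and MYC target genes from 24, to 0 at 4-fold and with 0.16, the latter to 15 with 0.04. Nucleotide genes went from 9 to 4 at 4-fold and to 0 with 0.16. The call of AHNAK was lost under total counts, and 15 calls among the 712 genes, KLF2, PFKL and CDT1 included, under the bins. Lost as well were CX3CR1, FCGR2A and DDX60 with totals taken without mitochondrially encoded genes, CDT1 and DKC1 with DESeq2 size factors and DKC1 with a prior count of 2. Depth limits genes with few counts in a library, such as CLEC5A, with 1 count in DMSO and an interval of 4.03 to 11.87.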

Other observations

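The share of genes called lower varied among chromosomes, which were compared after the values were seen. On chromosome 22, 54 of 307 genes tested (17.6%) were called lower, where 10.5% of all tested genes were. The share was 7.22% on chromosome 12 and 6.90% on chromosome 7. These differences were not tested.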
